A study of Drosophila melanogaster with 7 samples.

Results

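The RNA levels of 9 genes of GABA signalling were followed in cultured *Drosophila melanogaster* neurons: Gad1 and VGAT, which make GABA and load it into vesicles, the plasma membrane transporter Gat, the ionotropic receptor subunits Rdl, Lcch3 and Grd, and the metabotropic receptors GABA-B-R1, GABA-B-R2 and GABA-B-R3. They were chosen by gene symbol for their known function and not by their measured levels. All 9 were found among the 17753 genes of the count table. The samples were 7 control cultures (columns CC_1 to CC_7), all of the w1118 strain, a white-eyed laboratory stock used as wild type. Dissociated central nervous systems of 3 larvae went into a culture, and the mixed cells were kept for 7 days in vitro before RNA was collected. No treated or mutant culture was analysed here, so no comparison between conditions exists. The column names give the condition but not the numbered replicate, and nothing beyond the culture number says how far the cultures were prepared apart, so p-values measure only the spread between these libraries.

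GABA is the main inhibitory transmitter of the insect brain. It is made from glutamate by glutamate decarboxylase, is packed into synaptic vesicles, acts on chloride channels for fast inhibition and on G protein-coupled GABA-B receptors for slow inhibition, and is cleared from the extracellular space by a membrane transporter that in the fly is found largely in glia. Neurons that release GABA carry the synthesis and vesicle genes, whereas neurons of many transmitter types carry the receptors. RNA was measured here from whole cultures, in which fewer cells of a type and less RNA per cell cannot be told apart.

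The 7 libraries held 21178515 to 33891136 counts, of which the single gene Arc1 took 11.5 to 14.98%. Levels are given as library-size-scaled counts (CPM, counts × 1e6 over the library total), and 10 counts correspond to 0.295 to 0.472 CPM. As a check of the labelled cell type, 6 of 6 neuron markers were detected and summed to 2405 to 2927 CPM. Glial markers were also present, 8 of 8, and summed to 126 to 200 CPM. Library CC_1 stood apart. Its photoreceptor markers summed to 723 CPM against 25.4 to 166 CPM in the 6 others, and its yolk protein genes to 742 CPM against 24.6 to 239 CPM. Its hemocyte, muscle and fat body sums were also the highest. The 6 others were not alike. CC_2, CC_3 and CC_5 had 107 to 166 CPM of photoreceptor markers, against 25.4 to 36.1 CPM in CC_4, CC_6 and CC_7. For yolk protein genes these ranges were 86.8 to 239 and 24.6 to 32.2 CPM. Marker RNA alone does not show that such cells were present, and a relation of these non-neural markers to the levels below was not tested. Values that turn on CC_1 are given with and without it. Between libraries, counts differed beyond sampling noise in all 21 pairs (chi-square per degree of freedom 18.7 to 74.1), so no library was counted as a repeat of another.

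All 9 GABA genes passed the detection limit of 10 counts in each of the libraries, as did 53.4% of all listed genes. All 9 also had at least 1 and at least 100 counts throughout, limits passed by 60.2% and 40.9% of listed genes. The lowest count of any of them was 122, for Grd in CC_6. Their median level was 56.9 CPM, against 24.1 CPM for the 9476 genes that passed the limit. Per kilobase of exon, which allows for the length of each RNA, the median was 10.1 CPM per kb for the 9 genes, against 12.5 CPM per kb for all genes that passed.

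The RNAs for making and packing GABA were present in every library. Gene positions below are dm6 coordinates from the Ensembl annotation. Gad1 (FBgn0004516, chromosome 3L, 4074077 to 4088744, minus strand) encodes the glutamate decarboxylase of neurons, the enzyme that makes GABA. It ranged from 30.8 CPM in CC_5 over a median of 34.7 CPM to 47.0 CPM in CC_1, with a mean of 36.1 ± 5.78 CPM (SD, n = 7). CC_1 lay above the rest, and without it the mean was 34.3 ± 3.51 CPM (SD, n = 6). VGAT (FBgn0033911, chromosome 2R, 14198478 to 14201249, minus strand) encodes the transporter that fills synaptic vesicles with GABA. Its level was lowest in CC_4 at 46.6 CPM, had a median of 55.5 CPM and was highest in CC_1 at 69.1 CPM (56.9 ± 7.69 CPM, SD, n = 7). Again CC_1 was highest, followed by CC_2, and the mean without CC_1 was 54.9 ± 6.03 CPM (SD, n = 6).

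Gat encodes the plasma membrane transporter that takes GABA back up (FBgn0039915, chromosome 4, 629691 to 635350, plus strand). Values ran from 7.62 CPM in CC_7 over a median of 10.8 CPM to 13.9 CPM in CC_1, with a mean of 10.9 ± 2.29 CPM (SD, n = 7). The high libraries were CC_1, CC_6 and CC_4, of which CC_4 and CC_6 were among the lowest for Gad1. Counts were small, 196 to 374 per library, which alone gives a coefficient of variation (CV, the SD as a percentage of the mean) of 5.83%, against 20.99% measured.

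The ionotropic subunits differed widely in level. Rdl encodes the chloride channel subunit through which the insecticide dieldrin acts (FBgn0004244, chromosome 3L, 9145838 to 9182149, minus strand). In the 7 libraries it ranged from 62.9 CPM in CC_5 over 98.2 CPM at the median to 117 CPM in CC_2 (90.8 ± 21.9 CPM, SD, n = 7). CC_1, CC_2, CC_3 and CC_7 lay between 98.2 and 117 CPM, and CC_4, CC_5 and CC_6 between 62.9 and 78.8 CPM, with nothing between.

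Lcch3 encodes a subunit related to vertebrate GABA-A receptor beta subunits (FBgn0010240, chromosome X, 15925105 to 15928529, plus strand). Its level was 82.8 CPM in CC_3, 102 CPM at the median and 113 CPM in CC_1, and it averaged 98.9 ± 11.4 CPM (SD, n = 7). CC_3 and CC_5 were low and the 5 others lay between 97.9 and 113 CPM. Part of the Lcch3 exons, 456 bases or 24.0%, lies opposite exons of Ranbp16 on the other strand, a gene with 77.2 ± 7.26 CPM (SD, n = 7). How strand was treated in the counting is not stated, so reads over those bases may have been assigned to neither or to either gene.

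Grd, the gene with the fewest counts, encodes a further ionotropic subunit, which together with Lcch3 forms a GABA-gated cation channel when both are expressed in frog oocytes (FBgn0001134, chromosome 3L, 17823333 to 17839767, plus strand). It had 5.76 CPM in CC_6, 10.1 CPM at the median and 11.6 CPM in CC_3 (8.92 ± 2.34 CPM, SD, n = 7). As for Rdl, CC_4, CC_5 and CC_6 were low, at 5.76 to 7.08 CPM, and the other libraries lay between 10.1 and 11.6 CPM. Grd shares 1118 exon bases, 27.5% of its length, with CG5577 on the opposite strand, which had 5.92 ± 1.24 CPM (SD, n = 7), and the same limit on strand applies.

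The metabotropic receptors included the steadiest of the 9 RNAs. GABA-B-R1 (FBgn0260446, chromosome 2L, 15016331 to 15034704, plus strand) and GABA-B-R2 (FBgn0027575, chromosome 3R, 21770333 to 21775840, minus strand) encode the subunits that pair to form a working GABA-B receptor. GABA-B-R1 ranged from 36.6 CPM in CC_5 over a median of 53.6 CPM to 64.1 CPM in CC_2 (50.7 ± 10.97 CPM, SD, n = 7). It too was low in CC_4, CC_5 and CC_6, at 36.6 to 41.9 CPM, and between 53.6 and 64.1 CPM in the others.

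GABA-B-R2 was nearly level across the cultures, with 136 CPM in CC_7, 138 CPM at the median and 152 CPM in CC_4 (142 ± 6.95 CPM, SD, n = 7). CC_1 and CC_4 lay together slightly above the 5 others, and the highest library exceeded the lowest 1.12-fold. GABA-B-R3 (FBgn0031275, chromosome 2L, 749945 to 762399, plus strand) encodes the remaining member of the GABA-B family in flies, whose signalling is less well known. It ranged from 256 CPM in CC_5 over 295 CPM at the median to 328 CPM in CC_6 (297 ± 27.2 CPM, SD, n = 7). CC_5 was lowest and CC_1, CC_3 and CC_6 were highest.

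**Figure D1:**
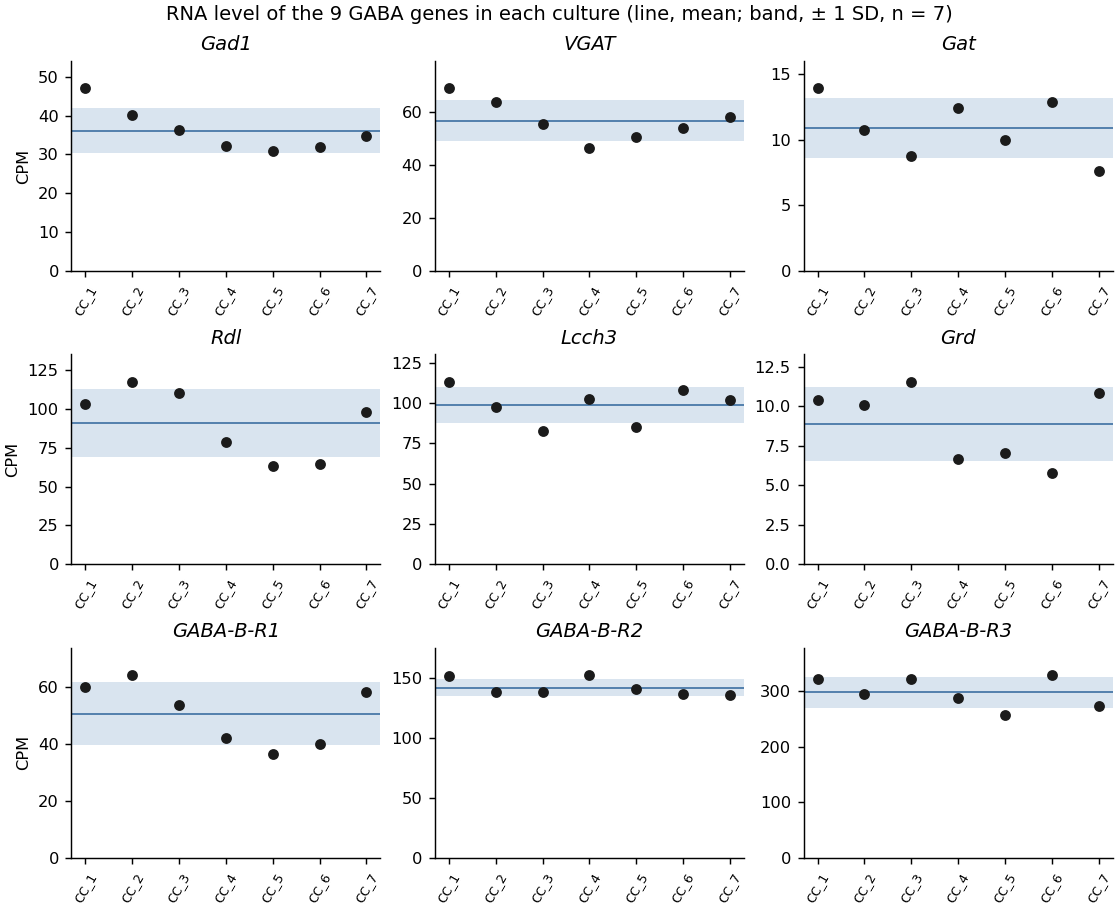
RNA level of each of the 9 genes in CPM (vertical axes, each starting at 0) in the libraries CC_1 to CC_7, with the mean as a line and ± 1 SD as a band (n = 7). Rdl, Grd and GABA-B-R1 are low together in CC_4, CC_5 and CC_6, whereas GABA-B-R2 stays between 136 and 152 CPM.

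Levels of different genes were compared per kilobase of exon, because a longer RNA yields more counts. Exon lengths ranged from 1903 bases for Lcch3 to 8994 bases for Rdl. On this scale Lcch3 was highest, at 52.0 ± 5.98 CPM per kb, followed by GABA-B-R3 at 42.3 ± 3.87, GABA-B-R2 at 35.6 ± 1.74 and VGAT at 21.1 ± 2.85 CPM per kb (SD, n = 7 each). Rdl at 10.1 ± 2.44, Gad1 at 9.80 ± 1.57 and GABA-B-R1 at 8.98 ± 1.94 CPM per kb formed a middle group. Gat had 3.77 ± 0.791 and Grd 2.19 ± 0.575 CPM per kb.

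Each gene was set against the next lower one within the same library by an exact two-sided sign-flip permutation test, adjusted over 8 pairs by the Benjamini-Hochberg method (BH), for which the smallest raw p of 7 libraries is 0.015625. Of the 8 pairs, 6 were separated. Lcch3 exceeded GABA-B-R3 by a log2 ratio of 0.29 ± 0.17 in 6 of 7 libraries (exact adjusted p = 0.0417). GABA-B-R3 exceeded GABA-B-R2 by 0.25 ± 0.15 in 7 of 7 libraries (exact adjusted p = 0.0312). Further steps on the log2 scale were GABA-B-R2 over VGAT at 0.76 ± 0.21, VGAT over Rdl at 1.09 ± 0.28 and GABA-B-R1 over Gat at 1.25 ± 0.50, each in 7 of 7 libraries (exact adjusted p = 0.0312 for each). Gat exceeded Grd by 0.80 ± 0.63 in 6 of 7 libraries (exact adjusted p = 0.0417). With any library left out, 0 of 8 pairs passed (exact adjusted p of these 6 pairs 0.05 to 0.0833). The smallest raw p of the exact test on 6 libraries is 0.03125, which leaves little room under 0.05 after adjustment. This loss therefore does not show that the order rests on a single library. The log2 ratios kept their direction and ranged from 0.27 to 0.36 for Lcch3 over GABA-B-R3 and from 1.03 to 1.147 for VGAT over Rdl.

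Neighbours in the middle group did not separate. The log2 ratio of Rdl to Gad1 was 0.02 ± 0.25, positive in 4 of 7 libraries (exact adjusted p = 0.812), and that of Gad1 to GABA-B-R1 was 0.14 ± 0.19, positive in 5 of 7 (exact adjusted p = 0.125). The order also rests on the assumed length. With the longest transcript in place of all exons, Lcch3 and GABA-B-R3 no longer separated (log2 ratio 0.06, exact adjusted p = 0.464), and when exon bases shared with another gene were left out of the lengths, neither did Gat and Grd (0.34, exact adjusted p = 0.214).

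**Figure D2:**
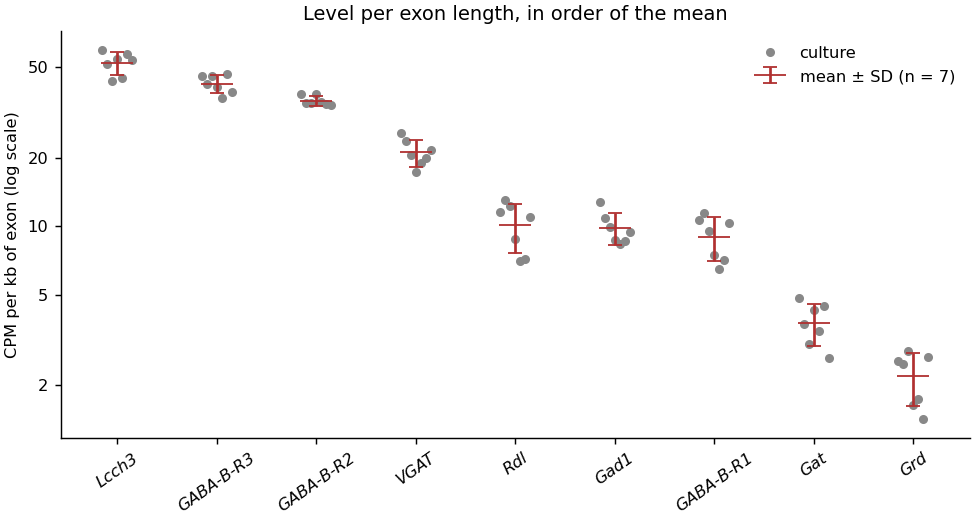
CPM per kilobase of exon (vertical axis, log scale) for the 9 genes in the order of their means; grey points are the 7 cultures and red bars the mean ± SD. Lcch3, GABA-B-R3 and GABA-B-R2 lie at the top with means of 52.0, 42.3 and 35.6, Rdl, Gad1 and GABA-B-R1 overlap, and Gat and Grd are lowest.

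The genes also differed in how far they varied between cultures. None of the 9 had a single library far from the rest by Dixon's ratio of gap to range, against 6.72% of all genes tested, and CC_1 was that library for 3.03% of all genes and for none of the 9. Among so few genes, none flagged is close to these shares. All 9 varied beyond counting error (chi-square test, BH-adjusted p under 0.05), as did 97.9% of all genes tested, so that count says nothing particular of GABA genes. Their median CV was 16.0%, against 14.1% for all genes tested. Since CV falls with level, each gene was placed among the genes within 2-fold of its own level. Rdl had a CV of 24.2% against a median of 9.17% for such genes, and 97.3% of them varied less. GABA-B-R1 had 21.7% against a median of 10.6%, with 95.0% varying less. GABA-B-R2 lay at the other end, with a CV of 4.90% against a median of 8.65%, and 8.90% of genes of its level varied less. The subunits of the GABA-B receptor thus lay near opposite ends of the range of spread. For the 6 other genes, between 61.3 and 78.9% of genes of similar level varied less.

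**Figure D3:**
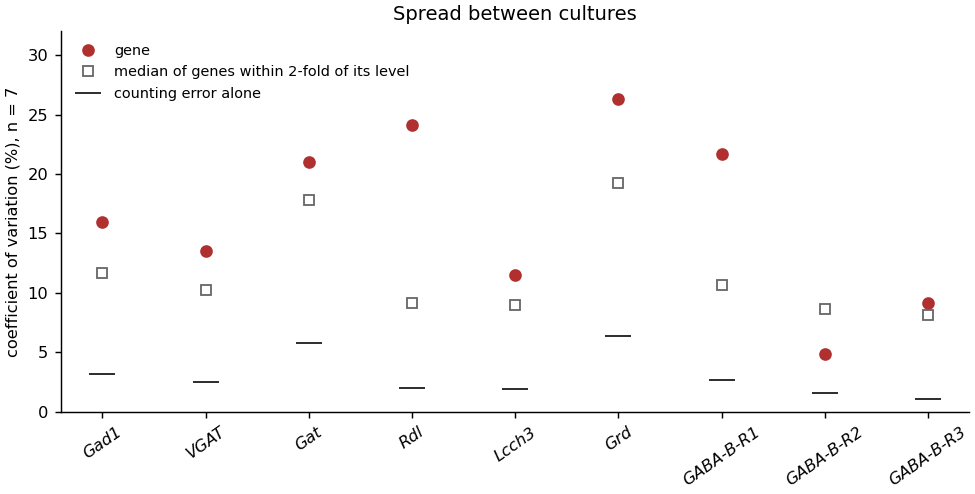
Coefficient of variation over the 7 cultures in percent (vertical axis) for each gene (red), with the median of genes within 2-fold of its level (open squares) and the value that counting error alone would give (black lines). Rdl at 24.2% and GABA-B-R1 at 21.7% lie far above their squares, and GABA-B-R2 at 4.90% lies below its own.

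Several of the genes were high in the same libraries. For 5 of the 9 (Gad1, VGAT, Rdl, Grd and GABA-B-R1), the 4 highest libraries were CC_1, CC_2, CC_3 and CC_7, a set shared by 5.61% of all genes tested. The set was picked because it was the commonest among the 9 genes, so the count is a description and was given no test. For VGAT the fourth place was close, 55.5 CPM in CC_3 against 54.0 CPM in CC_6, a gap of the size of its counting error (CV 2.54%). Gat, Lcch3, GABA-B-R2 and GABA-B-R3 each had another set of 4.

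The same 4 libraries also had the highest sums of neuron markers, with 2620 CPM in CC_1, 2927 in CC_2, 2837 in CC_3 and 2690 in CC_7, against 2512 CPM in CC_4, 2405 in CC_5 and 2587 in CC_6. The sums of CC_1 and CC_6 were close. All 6 neuron markers were detected in every library, but taken singly only 2 of the 6 (nSyb and cpx) had this set of 4 highest libraries. Marker sums of other cell types had other sets of 4 highest libraries, though 1 of the 8 glial markers, nrv2, had this set. CC_5, in which the 5 genes were low, had 135 CPM of photoreceptor markers and 167 CPM of glial markers. CC_7 had 25.4 and 132 CPM, and Gad1 was at its median of 34.7 CPM there. The cause of the pattern was not tested. Markers of dividing cells summed to 225 to 305 CPM, highest in CC_5 and lowest in CC_1. Rdl, Grd and GABA-B-R1 fell into separate clusters of 4 and 3 libraries, too few to correlate within, and a pooled r with the neuron score is therefore not given for them. Over all 27 relations of the 9 genes with marker scores, the smallest adjusted p was that of the neuron score with these genes, 0.225 for r (Rdl and GABA-B-R1) and 0.075 for rho (Rdl), by exact permutation. For Gad1 the correlation with the neuron score (the mean log2(CPM + 1) of its markers) was r = 0.61 (exact permutation p = 0.147, BH-adjusted over 27 relations 0.612; rho = 0.86, exact p = 0.0238, adjusted 0.214), and r = 0.40 when the 2 libraries farthest from the median score were left out. For VGAT it was r = 0.63 (exact permutation p = 0.121, adjusted 0.612; rho = 0.79, exact p = 0.048, adjusted 0.324), and r = 0.46 with those libraries left out.

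**Figure D4:**
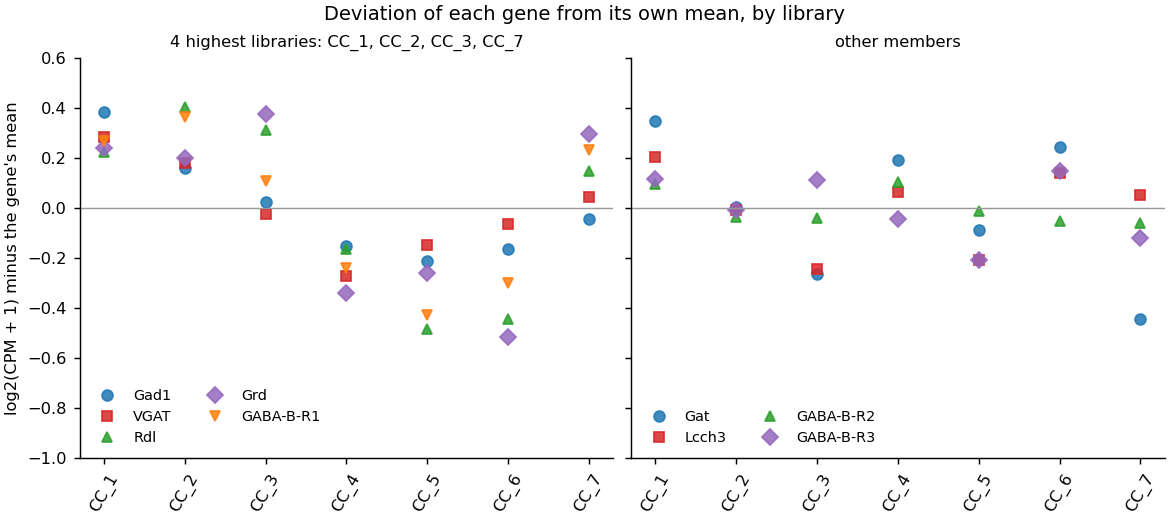
Difference of log2(CPM + 1) in each library from the gene's own mean (vertical axis) for the 5 genes whose 4 highest libraries were CC_1, CC_2, CC_3 and CC_7 (left) and for the 4 other genes (right). The genes on the left were chosen by these libraries, so the difference between the panels follows from that choice. On the left all points of CC_4, CC_5 and CC_6 lie below 0, as do Gad1 in CC_7 and VGAT in CC_3. On the right, points of CC_4, CC_5 and CC_6 lie on both sides of 0.

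Correlations between the genes were tested over the 7 libraries with exact two-sided permutation of all pairings of libraries and BH adjustment over 36 pairs. None passed after adjustment for Pearson's r or Spearman's rho, and 7 had an unadjusted p under 0.05 for r and 6 for rho. Rdl, Grd, GABA-B-R1 and GABA-B-R2 split into separate clusters of libraries, as did 16.2% of all genes tested, and pooled correlations are not given for them. Among the 10 pairs of the 5 remaining genes, a single pair had an unadjusted p under 0.05 for r, Gad1 with VGAT. These markers of GABA-releasing neurons had a correlation that did not pass after adjustment (r = 0.91, exact permutation p = 0.00377, adjusted 0.0679; rho = 0.86, exact p = 0.0238, adjusted 0.171), and r was 0.64 when the 2 libraries most distant from the Gad1 median were left out.

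Gat was compared with glial markers, since glia are its known site in the fly. The correlation was r = 0.11 (exact permutation p = 0.814, adjusted 0.993) and rho = -0.11 (exact p = 0.84, adjusted 0.945), and r was -0.41 without the 2 farthest libraries. With 7 libraries this does not show that the measures are unrelated. Lcch3 was negatively related to the score of dividing cells before adjustment (r = -0.81, exact permutation p = 0.0347, adjusted 0.312; rho = -0.61, exact p = 0.167, adjusted 0.643). Without the 2 farthest libraries r was 0.26, so this relation rested on those libraries. None of the 27 relations of the 9 genes with the neuron, glia and dividing-cell scores passed after adjustment, and 3 had an unadjusted p under 0.05 for r and 4 for rho.

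Ratios within a library show which genes kept step. VGAT over Gad1, per kb, ranged from 1.98 in CC_4 over the mean of 2.16 ± 0.137 (SD, n = 7) to 2.31 in CC_6. Its CV of 6.34% was below the CV of either gene, 13.5% for VGAT and 16.0% for Gad1. GABA-B-R1 over GABA-B-R2 averaged 0.253 ± 0.0571 (SD, n = 7), from 0.184 in CC_5 to 0.328 in CC_2. The RNA of GABA-B-R1 was therefore the scarcer of the paired subunits in every library, and their ratio was not constant, with a CV of 22.6%. GABA-B-R3 over GABA-B-R2 ranged from 1.03 in CC_5 to 1.36 in CC_6 (1.19 ± 0.121, SD, n = 7). Rdl over Lcch3 ranged from 0.126 in CC_6 to 0.281 in CC_3 (0.197 ± 0.0551, SD, n = 7), and Grd over Lcch3 from 0.0248 in CC_6 to 0.0653 in CC_3. The receptor RNAs thus moved in unequal proportion between cultures. The last 2 ratios share Lcch3 as denominator, which had 108 CPM in CC_6 and its lowest level, 82.8 CPM, in CC_3. Their common extremes therefore partly reflect Lcch3, and Rdl itself was lowest in CC_5, at 62.9 CPM.

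**Figure D5:**
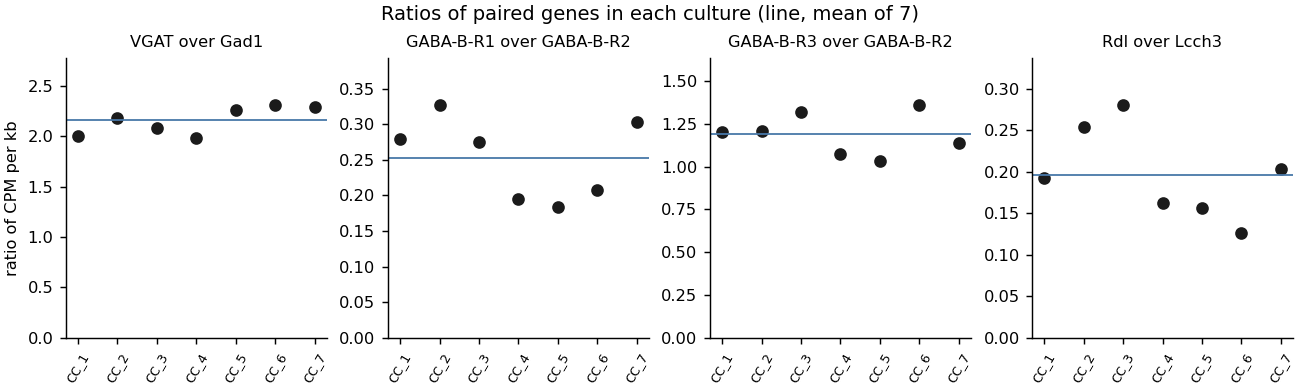
Ratios of CPM per kilobase (vertical axes, starting at 0) in the libraries CC_1 to CC_7, with the mean as a line. VGAT over Gad1 stays between 1.98 and 2.31, whereas GABA-B-R1 over GABA-B-R2 runs from 0.184 to 0.328 and Rdl over Lcch3 from 0.126 to 0.281.

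Other genes of the pathway were examined as a list of 18, of which 15 were detected. Their median level was 33.3 CPM and their median CV 17.2%, and 3 of the 15 (Gabat, GluClalpha and pHCl-1) shared the 4 highest libraries named above. Among the genes that break GABA down, Gabat, the GABA transaminase, had 66.6 ± 11.5 CPM, and Ssadh, which oxidises the product of that step, had 33.3 ± 4.70 CPM (SD, n = 7 each). Gabat was highest in CC_1 at 87.9 CPM, and without that library it had 63.03 ± 7.22 CPM (SD, n = 6). Per kb of exon, the degrading enzyme Gabat had 28.6 ± 4.92 CPM and the synthetic enzyme Gad1 9.80 ± 1.57 CPM (SD, n = 7 each), a difference larger than the spread of either and given no test. The glutamine synthetases Gs1 and Gs2 had 86.6 ± 8.09 and 27.04 ± 12.1 CPM, and the glutamate transporter Eaat1 28.1 ± 5.41 CPM (SD, n = 7 each). The gene b, an aspartate decarboxylase related to Gad1, passed 10 counts in 6 of 7 libraries and had 6.48 CPM in CC_1 against 0.105 to 1.151 CPM in the others.

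The direction of chloride current through these receptors depends on cotransporters. The potassium chloride cotransporter kcc, which lowers chloride in the cell, had 261 ± 18.8 CPM, and Ncc69, which brings chloride in, had 130.4 ± 12.7 CPM (SD, n = 7 each). Galphao, a G protein subunit that GABA-B receptors can signal through, had 423 ± 24.8 CPM (SD, n = 7). Of the related ligand-gated channels, GluClalpha had 82.4 ± 19.5 CPM and pHCl-1 83.1 ± 12.6 CPM. Per kb these were 12.4 ± 2.94 and 9.95 ± 1.505 CPM, near the 10.1 ± 2.44 CPM of Rdl (SD, n = 7 each). The histamine receptor HisCl1 had 6.07 ± 0.863 CPM (SD, n = 7). CG8916, whose product is related to the ionotropic GABA receptor subunits, had 1.77 ± 1.05 CPM (SD, n = 7). It was highest in CC_1 at 3.84 CPM, and without that library it had 1.43 ± 0.569 CPM (SD, n = 6). The channels pHCl-2, SecCl (CG7589) and alka (CG12344) averaged 0.868 to 2.58 CPM. The histamine receptor ort and CG6927 failed the detection limit, at 0 to 2.03 and 0 to 0.944 CPM.

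Marker genes of other transmitters were measured in the same libraries, and 7 of 7 were detected. Per kb, the vesicular transporters stood at 21.1 ± 2.85 for VGAT (GABA), 28.3 ± 6.63 for VGlut (glutamate) and 17.6 ± 5.58 for VAChT (acetylcholine) (SD, n = 7 each). VAChT lies within the ChAT locus and shares its start in the annotation, so the counts of these genes are uncertain. VGlut and VAChT had the same 4 highest libraries as VGAT, but they varied more, with CVs of 23.4 and 31.7% against 13.5% for VGAT. The synthetic enzyme of GABA, Gad1, had 9.80 ± 1.57 CPM per kb, against 3.73 ± 0.889 for ChAT (acetylcholine), 4.18 ± 0.565 for ple (dopamine), 2.43 ± 0.943 for Tdc2 (tyramine and octopamine) and 374 ± 101 CPM per kb for Trhn (serotonin) (SD, n = 7 each). Vmat, which loads the monoamines, had 2.51 ± 1.30 CPM per kb (SD, n = 7). These differences between transmitters were given no test.

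For each of the 9 genes, the 3 genes with the most similar pattern over the 7 libraries were found by Pearson's r of log2(CPM + 1) among the genes averaging at least 10 CPM. The points share library depth, and the values are a description with no test. They are the highest of 6420 genes compared (6421 for Grd), of which 0.202 to 1.37% had an r above 0.9. No r is printed for Rdl, Grd, GABA-B-R1 and GABA-B-R2, which split into clusters of libraries. Gad1 was most like CG32052 (r = 0.98), Syn1 (0.98) and Csgalnact (0.98), and VGAT most like UQCR-14 (0.95), svp (0.95) and Sesn (0.95). The nearest to Gat were snf (0.98), cu (0.95) and CG13369 (0.94). For the ionotropic subunits, Rdl was nearest to Scgdelta, CG3078 and CrebA, and Grd to CG32264, CG10384 and Tpst. Lcch3 was nearest to Npc2a (0.99), CG1983 (0.98) and Pis (0.98). Of the GABA-B receptors, GABA-B-R1 was nearest to Rbp6, CG4660 and CG45002, and GABA-B-R2 to CG11737, CG5412 and CG12213. GABA-B-R3 was nearest to Ptp4E (0.97), CG34136 (0.95) and Prp5 (0.95). None of the 9 genes had another of the 9 among its nearest 3.

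The study is concerned with Pum, an RNA-binding protein that represses translation, and lists its target mRNAs in adult heads. Rdl and GABA-B-R1 are on that list of Pum targets, and the 7 other genes are not. None of the 9 is on the list of genes with a neuron-specific 3′ UTR. The share of all genes on either list was not worked out here, so these counts say nothing particular of GABA genes. A relation between the lists and the spread of the genes was not tested. The counts used here are per gene and carry no information on 3′ UTR isoforms or on binding.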

How the data were processed

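RNA of 7 control cultures was sequenced. The authors deposited whole-number read counts per gene, made with featureCounts and not normalized. The labels' processing notes name the build dm6, and neither aligner nor strand setting nor annotation is given in the sources used here. The labels describe ribosomal-RNA-depleted total RNA with reads of 100 bases, whereas the methods give an mRNA kit and 150 bases. The table holds 8 further columns of per-sample values that match no sample, and they were not used.

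CPM were computed from library totals of 21178515 to 33891136, and log2 values carry a pseudocount of 1 CPM. Ensembl release 115 (BDGP6.54, which uses dm6 coordinates) gave exon lengths and positions for 17626 of the 17753 identifiers. No genome sequence was used. Genes with at least 10 counts in every library were tested. Precision is set by the counts behind each gene, and the chi-square test and counting CV cover counting error only. Ratios of neighbouring genes were tested by sign flips over 128 patterns, correlations by all pairings of libraries. Steps were tested on simulated data.

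The 9 genes and all lists were chosen with earlier results of these data known, except that the rule used no measured value. All 9 genes and the listed pathway, marker and transmitter genes are named or counted, with the 3 most similar genes of each. Alternatives were TMM and DESeq2 size factors, totals without Arc1, other detection limits, other lengths, a pseudocount of 0.1 CPM and leaving out each library. Another exon length, and other scalings of the outlier step and of the set of highest libraries, were added after seeing the data. Python 3.11.15 with scipy 1.17.1, numpy 2.4.6, pandas 2.3.3 and matplotlib 3.10.9, and edgeR 4.0.16 and DESeq2 1.42.0 under R 4.3.3, were used.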

Additional observations from a re-analysis of the deposited data

Results flagged for a closer look

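None of the 9 GABA genes had a library apart from the others by Dixon's ratio, against 6.72% of all genes tested. Among so few genes, none flagged is close to that share and says nothing particular of GABA genes. Library CC_1 stood apart in marker sums of cell types that a culture of larval neurons need not hold. Its sum was 81.5 CPM for hemocyte markers, against 31.8 to 42.9 CPM in the 6 others, with 3 of 5 markers passing 10 counts in every library. For muscle markers CC_1 had 96.7 CPM against 12.7 to 27.8 CPM, with 3 of 4 passing. Fat body markers summed to 17.6 CPM in CC_1 against 3.26 to 9.41 CPM, with 1 of 5 passing and Lsp1alpha and Lsp1gamma at 0 counts in CC_1. Photoreceptor markers summed to 723 CPM against 25.4 to 166 CPM, with 5 of 6 passing, and yolk protein genes to 742 CPM against 24.6 to 239 CPM, with 3 of 3 passing. These lists draw on the same library and are not independent, and chance flags about 1 in 20 groups. Gad1, VGAT, Gat and Lcch3 were also highest in CC_1. Marker RNA alone does not show that such cells were present, and a relation of these markers to the 4 genes was not tested. The largest relative change in a mean on leaving out CC_1 among these 4 genes was for Gad1, 34.3 ± 3.51 CPM (SD, n = 6) against 36.1 ± 5.78 CPM with it (SD, n = 7).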

How the results depend on the processing

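Under TMM and DESeq2 scaling, mean levels moved by less than 1 SD. With Arc1 left out of the totals, VGAT had 65.8, Lcch3 114, GABA-B-R2 164 and GABA-B-R3 344 CPM, each moved by more than its SD, because Arc1 holds 11.5 to 14.98% of the counts. The count of 9 genes detected, the 9 that varied beyond counting error and the 0 adjusted correlations did not change under any alternative run. For correlations between the 9 genes, the exact test on 6 libraries has little room to pass after adjustment over 36 pairs. The 0 on leaving out a library is therefore no sign of robustness there. Under other scalings, 5 genes still shared their 4 highest libraries. Without CC_1 the count stayed at 5, but it could not fall, because CC_1 belongs to the shared set. The 6 separated neighbours became 0 on leaving out any library (exact adjusted p 0.05 to 0.0833), where the test on 6 libraries has little room to pass. Their log2 ratios kept their direction, with 0.21 to 0.28 for GABA-B-R3 to GABA-B-R2 and 1.13 to 1.35 for GABA-B-R1 to Gat. Without length scaling, Lcch3 to GABA-B-R3 reversed to a log2 ratio of -1.59, VGAT to Rdl to -0.65 and Gad1 to GABA-B-R1 to -0.47, as the genes differ in length. In that setting Rdl to Gad1 separated (1.31, exact adjusted p = 0.0179) and Gat to Grd no longer did (0.31, exact adjusted p = 0.219). Rdl to Gad1, not separated, became -0.0473 with the longest transcript and ranged from -0.0304 to 0.0649 on leaving out a library. Gad1 to GABA-B-R1 separated with the longest transcript (0.27, exact adjusted p = 0.0417). Genes were compared within the same library, but no pairing of cultures between conditions was possible because all cultures belong to 1 group. Genes with few counts, Gat and Grd, are limited most by depth.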
